A study of Mus musculus with 12 samples.

Results

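The insulin-like growth factor (IGF) axis was followed through a mouse hepatic stellate cell line exposed to TGFb, with and without an siRNA against the clock factor Bmal1. The genes described are the ligands Igf1 and Igf2, the receptors Igf1r and Igf2r, and the binding proteins Igfbp2, Igfbp3, Igfbp4, Igfbp5, Igfbp6 and Igfbp7. They were chosen by gene symbol, and all 10 were found among the 15720 gene identifiers of the table. EMS404 cells are SV40-immortalised stellate cells of C57Bl6 origin that express human TLR4, and every group shares these features. Cells received a scrambled siRNA or an siRNA against Bmal1, and, 48 h after transfection, TGFb at 10 ng/mL or its vehicle for another 24 h. These make 4 groups, scrambled siRNA with vehicle, scrambled siRNA with TGFb, Bmal1 siRNA with vehicle and Bmal1 siRNA with TGFb, each with 3 RNA-seq libraries, 12 in all. The cells are a single immortalised line, and the series text names a single Bmal1 siRNA, so the lowering of Bmal1 and any other effect of that siRNA cannot be told apart. No label says whether triplicates were separate cultures, so the tests measure the spread between libraries, which may be technical in part.

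IGF-I and IGF-II are secreted hormones that signal through the tyrosine kinase IGF1R and its adaptors to PI3K and AKT. IGF2R, also the cation-independent mannose 6-phosphate receptor, takes up and clears IGF-II and sorts lysosomal enzymes. The classical binding proteins carry IGFs with high affinity, prolong their life and limit or deliver them to receptors, and IGFBP7 is a related, matrix-associated protein with low affinity for IGFs. In the liver, hepatocytes are the main source of circulating IGF-I, while activated stellate cells and myofibroblasts secrete binding proteins and matrix.

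All values are FPKM (fragments scaled to transcript length and library size), a scale on which levels of different genes can be compared because it is per length. FPKM totals lay between 445472 and 483957 per library, and sequencing depth is unknown. Bmal1 (Arntl) stood at 4.91 to 5.43 FPKM with scrambled siRNA and vehicle and at 3.59 to 3.90 after its siRNA, and under TGFb at 10.50 to 10.86 against 4.0 to 5.05 FPKM. The groups did not overlap in either pair. The ratio of Bmal1 siRNA to scrambled means was 0.731 under vehicle and 0.407 under TGFb, so Bmal1 RNA was lowered in part. Of 10 stellate markers 8 had values, with Col1a1 at 2716 FPKM or more and Vim at 962 or more in every library, Des between 0.52 and 1.23, and Colec11 at most 0.22. The stellate markers Lrat and Reln had no values. Other cell types were judged from fixed marker lists. The 6 endothelial markers summed to between 1.14 and 3.36 FPKM, most of it Tek, with Pecam1 at most 0.13 and Cdh5 at most 0.07. Of 6 leukocyte markers 4 had values, with Lyz2 at most 0.15, Laptm5 and Itgam at most 0.02, and Cd68 between 2.63 and 4.71 FPKM. The 4 cholangiocyte markers summed to between 5.04 and 9.65 FPKM. Of 7 hepatocyte markers 3 had values, Apoa1 at most 0.49, Ahsg at most 3.45 and Trf, the transferrin gene, from 40.5 to 240 FPKM. Alb, Ttr, Fgb and Serpina1a had none. The sum, nearly all of it Trf, was 193 to 213 FPKM with scrambled siRNA and vehicle and 40.6 to 59.0 with scrambled siRNA and TGFb. With Bmal1 siRNA it was 209 to 244 under vehicle and 48.1 to 107 under TGFb. The 4 mesothelial markers Upk3b, Msln, Wt1 and Gpm6a were present, with a summed level of 243 to 287 FPKM (scrambled, vehicle), 74.3 to 102 (scrambled, TGFb), 278 to 304 (Bmal1 siRNA, vehicle) and 76.0 to 152 FPKM (Bmal1 siRNA, TGFb). With TGFb in control cells 1 of the 4 rose and 3 fell, against 16.4% and 29.1% of all genes tested. After the Bmal1 siRNA none rose by limma and 3 fell with TGFb, against 8.90% and 10.1%. Both sums moved with TGFb beside the genes described here, and their part in the results was not tested. In a bulk sample fewer cells of a type and less RNA per cell cannot be told apart.

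In resting control cells the axis was dominated by a single binding protein and a single ligand. Igfbp4, an inhibitory binding protein, stood at 696 ± 27.5 FPKM (SD, n = 3), rank 82 of 15720 genes by mean level. Igf2, the fetal-type ligand, followed at 601 ± 47.3 FPKM, rank 94. Their libraries did not overlap (675.97 to 727.61 against 546.29 to 630.04 FPKM). Next came Igfbp6, which binds IGF-II in preference to IGF-I, at 28.6 ± 1.46, and Igfbp7 at 25.3 ± 4.14 FPKM, whose libraries overlapped. Igf2r stood at 15 ± 1.57, Igfbp3, the main serum carrier, at 11.1 ± 1.15, Igf1r at 7.0 ± 0.315, Igf1 at 5.03 ± 0.995 and Igfbp2 at 3.49 ± 0.835 FPKM. None of these 5 neighbours overlapped, although the highest Igfbp2 library (4.01) and the lowest Igf1 library (4.02) nearly met. Igf2 exceeded Igf1 by a factor of 104 to 136 in these 3 libraries. Igfbp5 was at 0 in 8 of 12 libraries and at most 0.03 FPKM in the rest, too low to be tested, and the other 9 genes passed the filter of a mean of at least 0.5 FPKM. Igfals, which encodes the serum partner of IGFBP3, reached at most 0.17 FPKM, and Igfbp1 was not analysed here.

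Positions are from GENCODE M21 on mm10. Igfbp2 (chromosome 1, 72824503 to 72852474, plus strand) and Igfbp5 (chromosome 1, 72857932 to 72874884, minus strand) lie 5458 bases apart, end to end, and differed in level as above. Igfbp3 (chromosome 11, 7206086 to 7213923, minus strand) and Igfbp4 (chromosome 11, 99041244 to 99054392, plus strand) share a chromosome but not a locus. Igfbp6 is on chromosome 15 (102144362 to 102149511, plus strand), Igf1 on chromosome 10 (87858265 to 87937042, plus strand), Igf1r on chromosome 7 (67952827 to 68233668, plus strand) and Igf2r on chromosome 17 (12682406 to 12769664, minus strand). Overlapping exons matter for 2 of these genes, and whether reads were counted by strand is not stated. Igf2 (chromosome 7, 142650766 to 142666816, minus strand) shares 3596 of its 5723 exon bases with the protein-coding model Gm49394 on the same strand and 98 with the antisense gene Igf2os. Reads in the bases shared with Gm49394 cannot be told apart even if counted by strand. Those shared with Igf2os cannot if strand was not used. Igfbp7 (chromosome 5, 77349240 to 77408041, minus strand) shares 85 of 1209 exon bases with Polr2b, an RNA polymerase subunit gene, which stayed between 30.76 and 36.0 FPKM in all 12 libraries.

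BMAL1 binds DNA with CLOCK at the E-box CACGTG, so the 250 bases upstream of each start site in RefSeq (GRCm38.p6) were searched for it on both strands. RefSeq gave 14 such windows for the 10 genes. The E-box was found in 2 of them, against 6.03% of 32544 windows of the same length over all genes. These are shown because they are the only places in the 14 windows where the E-box letters occur. Capitals mark them. Igfbp2 holds the motif 142 bases upstream of its start site (chr1:72824230-72824479, plus strand), and Igf2r holds it at 48 and at 7 bases upstream (chr17:12769707-12769956, minus strand).
Igfbp2: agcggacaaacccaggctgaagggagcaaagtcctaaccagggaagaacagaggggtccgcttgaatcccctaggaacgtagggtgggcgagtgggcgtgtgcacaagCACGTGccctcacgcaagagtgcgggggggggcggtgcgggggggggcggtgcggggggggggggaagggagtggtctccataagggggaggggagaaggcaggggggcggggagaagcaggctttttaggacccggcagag
Igf2r: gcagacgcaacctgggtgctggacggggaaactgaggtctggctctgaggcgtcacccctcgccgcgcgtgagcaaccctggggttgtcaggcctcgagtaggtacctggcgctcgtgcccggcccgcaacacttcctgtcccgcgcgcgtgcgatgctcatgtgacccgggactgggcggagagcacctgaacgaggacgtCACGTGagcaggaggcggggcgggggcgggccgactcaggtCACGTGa
A Smad motif, CAGACA, occurred in 2 of the 14 windows, against 17.0% of all windows. Both belong to Igf2, which has 4 windows. The nearer lies 17 bases upstream of the start site (chr7:142657497-142657746, minus strand) and is shown with the motif in capitals. The windows of Igfbp3, Igfbp6 and Igfbp7 held no such motif, and a link between the motif and changes with TGFb was not tested.
Igf2: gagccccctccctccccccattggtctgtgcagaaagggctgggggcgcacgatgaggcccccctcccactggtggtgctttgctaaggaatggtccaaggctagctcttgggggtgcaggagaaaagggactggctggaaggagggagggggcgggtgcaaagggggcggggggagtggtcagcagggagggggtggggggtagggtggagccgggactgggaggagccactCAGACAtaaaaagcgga
The palindrome GTCTAGAC was in none of the 14 and in 0.169% of all windows. A match is a description of letters, not of binding, and the absence of a match says only that these letters are not in the window.

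**Figure D1:**
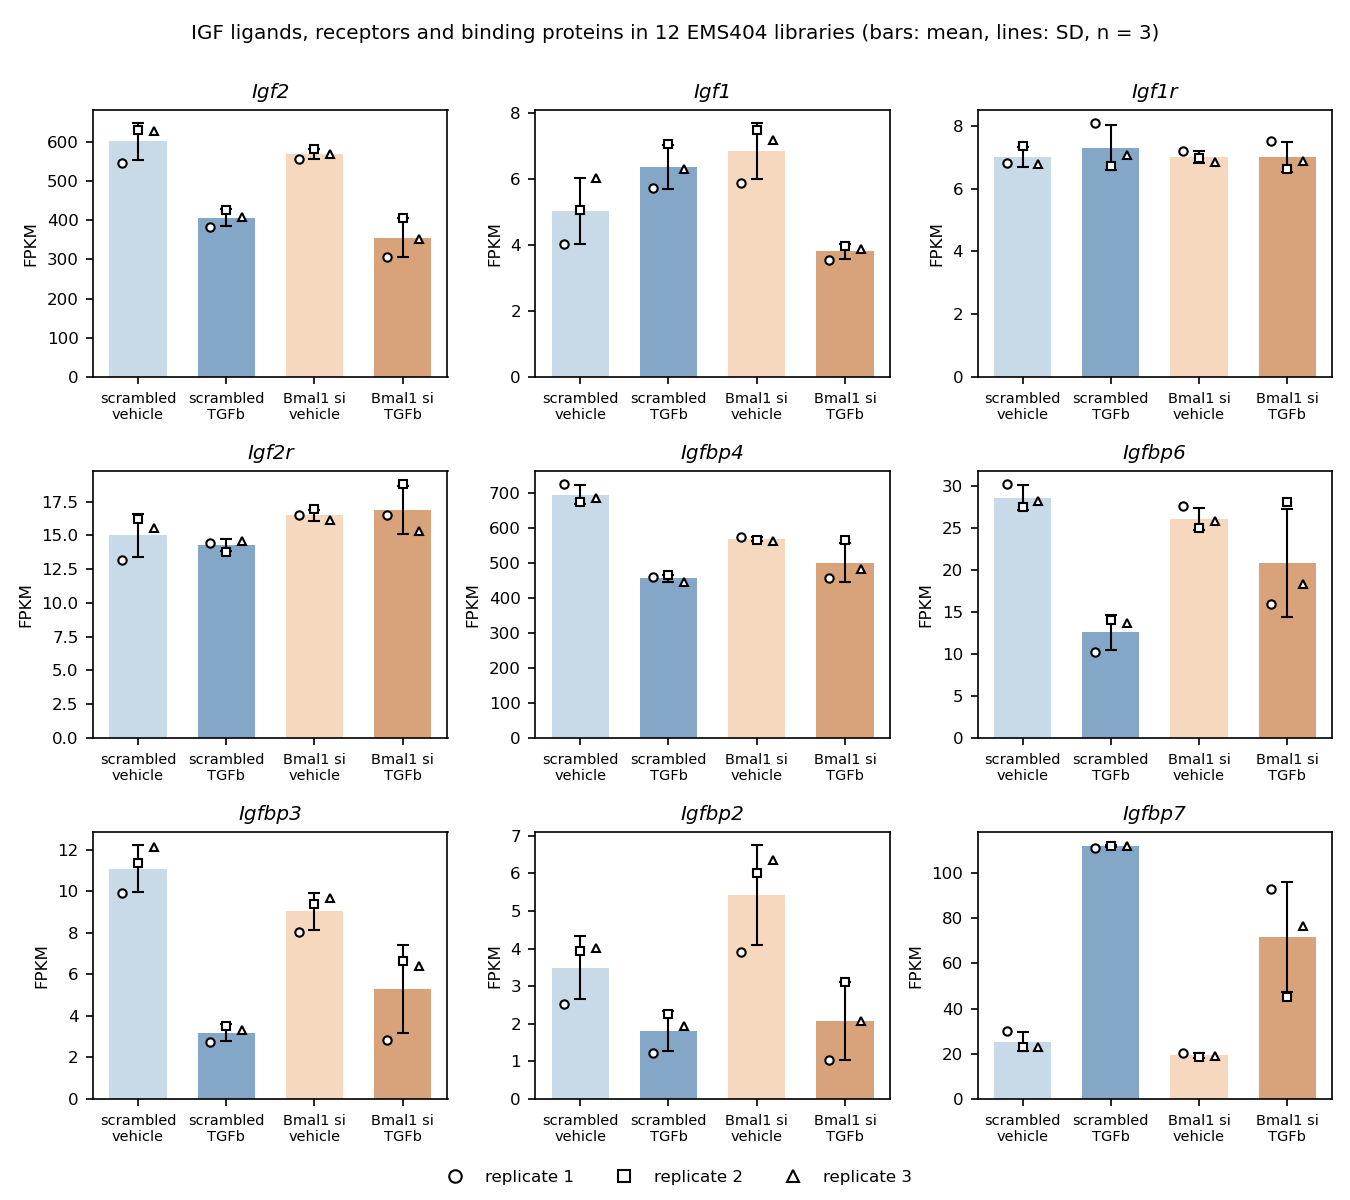
FPKM of 9 genes in each of the 12 libraries (symbols mark the replicate number), with group means as bars and SD as lines (n = 3), each vertical axis starting at 0. Igfbp7 rose with TGFb from 25.3 to 112 FPKM in control cells while Igfbp3, Igfbp4, Igfbp6 and Igf2 fell, and Igf1 was lowest with the Bmal1 siRNA and TGFb (3.55 to 3.97 FPKM).

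In control-transfected cells TGFb shifted the binding proteins in opposite directions and left both receptors within their spread. Igfbp7 was at 30.10, 22.86 and 23.01 FPKM under vehicle and at 111.09, 111.93 and 111.70 under TGFb. All TGFb libraries lay far above all vehicle libraries, a ratio of means of 4.41 (log2 change 2.11, SE 0.189, adjusted p = 1.51e-06), and the gene moved from rank 3452 to rank 665. The log2 changes are on the log2(FPKM + 1) scale of the limma fit, which understates changes of low genes. Igfbp3 went the other way, from 9.90, 11.36 and 12.16 FPKM to 2.73, 3.51 and 3.34, without overlap and with a ratio of 0.287 (log2 -1.53, SE 0.202, adjusted p = 4.1e-05). Igfbp6 fell from 30.27, 27.45 and 28.19 to 10.21, 14.00 and 13.68 FPKM (log2 -1.13, SE 0.158, adjusted p = 6.71e-05). The abundant Igfbp4 fell from 727.61, 675.97 and 685.59 to 460.30, 465.75 and 445.98 FPKM, a smaller change in proportion (log2 -0.61, SE 0.067, adjusted p = 9.35e-06). Igfbp2 fell from 2.53, 3.94 and 4.01 to 1.21, 2.25 and 1.95 FPKM (log2 -0.68, SE 0.239, adjusted p = 0.033). That call ended without scrambled vehicle replicate 2 or 3 or scrambled TGFb replicate 1 or 3 (adjusted p 0.0557 to 0.127), when low genes were not filtered (0.0705) and with robust fitting (0.0564).

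Among the ligands, Igf2 fell with TGFb in control cells, from 546.29, 630.04 and 626.34 to 382.90, 426.73 and 407.05 FPKM, with no overlap (log2 -0.56, SE 0.088, adjusted p = 0.000166). Igf1 stood at 4.02, 5.05 and 6.01 FPKM under vehicle and at 5.72, 7.05 and 6.30 under TGFb. The groups overlapped and the difference just missed the threshold (log2 0.30, 95% interval 0.05 to 0.55, adjusted p = 0.0502). It passed in 10 of 25 alternative fits, without scrambled vehicle replicate 3 among them (0.0119). Igf1r lay at 6.83, 7.36 and 6.80 FPKM under vehicle and at 8.10, 6.71 and 7.08 under TGFb (log2 0.05, 95% interval -0.10 to 0.20, with the sign turning to -0.02 without scrambled TGFb replicate 1). Igf2r lay at 13.21, 16.20 and 15.53 FPKM against 14.46, 13.79 and 14.56 (log2 -0.06, 95% interval -0.23 to 0.11). The intervals bound both receptor changes to under 1 log2 unit but do not show that they were equal to 0.

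In all, 1 of 9 tested genes rose and 5 fell with TGFb in control cells, against 45.5% of all 11208 genes tested that were called in either direction, 16.4% higher and 29.1% lower. The median log2 change of the 9 was -0.56 and that of all genes tested -0.05. In 6 of the 9 the groups did not overlap, as in 55.0% of all genes. The share of higher calls over all genes was 36.1% on the deposited scale and 49.1% with median-of-ratios scaling, and the 6 calls kept their direction under each scaling tried.

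**Figure D2:**
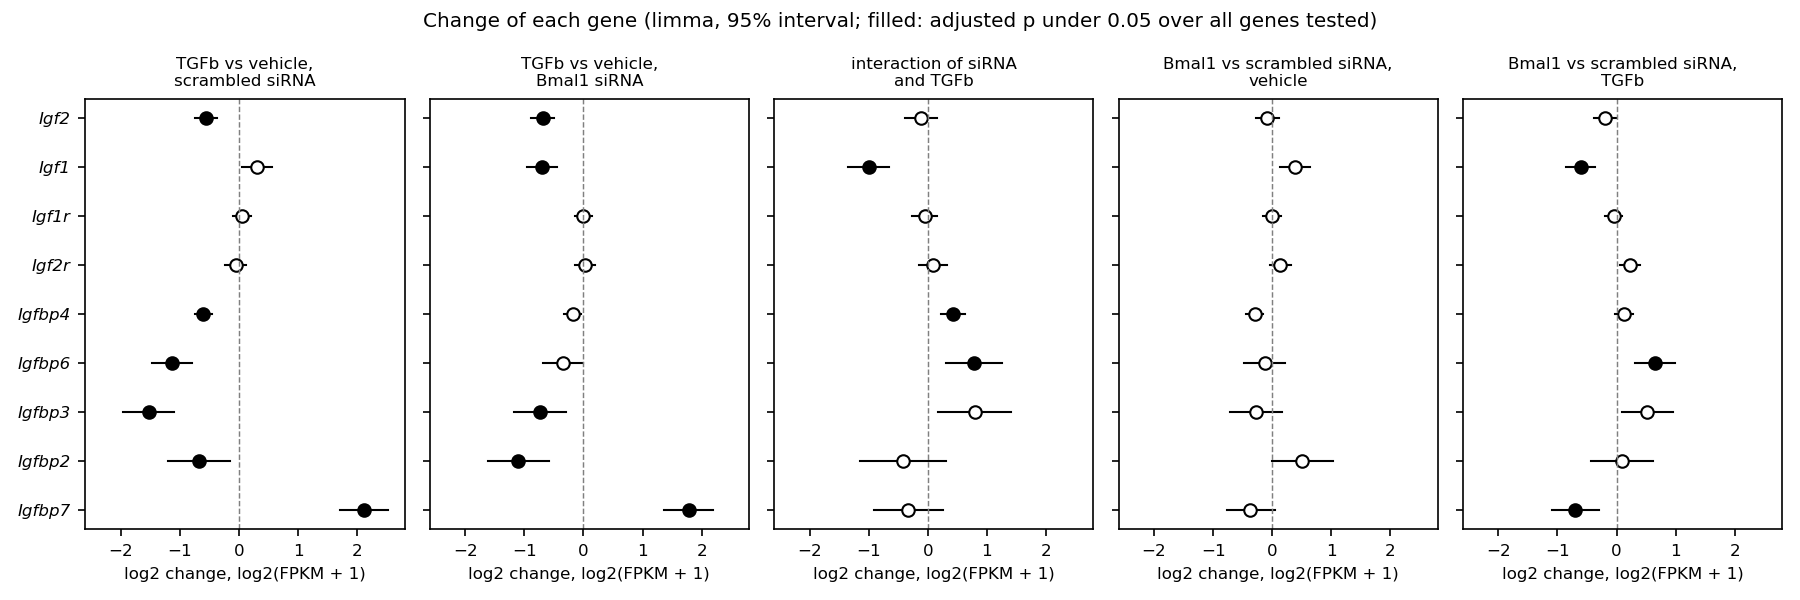
Log2 change of each gene in the 5 comparisons (columns), on the log2(FPKM + 1) scale with limma's 95% interval; filled points passed an adjusted p of 0.05 over all genes tested. The interaction column shows Igf1 at -1.0, Igfbp4 at 0.42 and Igfbp6 at 0.78 as the filled points.

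In cells with the Bmal1 siRNA, TGFb also raised Igfbp7 and lowered Igf2, Igfbp2 and Igfbp3, and it lowered Igf1. This comparison and the one in control cells use different libraries. Igfbp7 went from 20.36, 18.57 and 18.89 to 92.93, 45.02 and 76.59 FPKM, all above vehicle but widely spread (log2 1.78, SE 0.189, adjusted p = 7.25e-05). Igf2 went from 555.17, 580.91 and 567.78 to 306.48, 405.45 and 352.33 FPKM (log2 -0.69, SE 0.088, adjusted p = 0.000236). Igfbp2 went from 3.91, 6.02 and 6.36 to 1.03, 3.11 and 2.07 FPKM (log2 -1.10, SE 0.239, adjusted p = 0.00625). None of these pairs of groups overlapped. Igfbp3 went from 8.04, 9.40 and 9.69 to 2.83, 6.66 and 6.41 FPKM (log2 -0.74, SE 0.202, adjusted p = 0.022). The Igfbp3 call ended without Bmal1 siRNA vehicle replicate 2 or 3 (adjusted p 0.074 and 0.0807), with no filter (0.054) and with only the groups compared (0.0721). Without Bmal1 siRNA TGFb replicate 1 its change was -0.41.

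Igfbp4 and Igfbp6 overlapped between vehicle and TGFb after the Bmal1 siRNA. Igfbp4 stood at 575.65, 566.82 and 564.18 FPKM under vehicle and at 457.31, 566.23 and 483.90 under TGFb (log2 -0.18, adjusted p = 0.0735). Igfbp6 stood at 27.58, 25.01 and 25.80 FPKM under vehicle and at 15.99, 28.11 and 18.33 under TGFb (log2 -0.35, adjusted p = 0.141). In both genes the second TGFb library lay among the vehicle libraries or beside them, and the other two lay below. Without that library both passed, at log2 -0.27 (adjusted p = 0.00116) and -0.58 (adjusted p = 0.00129). Igf1r (7.53, 6.61 and 6.88 FPKM against 7.21, 6.98 and 6.85) and Igf2r (16.50, 18.83 and 15.32 against 16.48, 16.97 and 16.16) overlapped, with log2 changes of 0.00 (95% interval -0.15 to 0.15) and 0.02 (-0.15 to 0.19), both with a sign that other fits turned. Of the 9 genes 1 rose and 4 fell, against 19% of all genes tested called, 8.90% higher and 10.1% lower. In the same 5 genes the groups did not overlap, against 35.4% of all genes. The median of the 9 was -0.35 and that of all genes tested 0.00.

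The direct test of whether the TGFb effect differed between siRNAs is the interaction, which was called for 3 of 9 genes against 14.4% of all genes tested. It was higher in 2 and lower in 1, against 8.86% and 5.52%. Igf1 showed the most secure difference. With scrambled siRNA its mean went from 5.03 ± 0.995 to 6.36 ± 0.667 FPKM with TGFb, and with Bmal1 siRNA from 6.84 ± 0.858 (5.87, 7.49 and 7.17 FPKM) to 3.80 ± 0.223 (3.55, 3.97 and 3.89 FPKM). The difference of the 2 effects was -1.0 on the log2 scale (SE 0.163, 95% interval -1.35 to -0.65, adjusted p = 0.00176). It was called in all 24 alternative fits, with values from -1.17 to -0.61. Between siRNAs, Igf1 differed by log2 0.39 under vehicle (not called in the main fit) and by -0.61 under TGFb (called). Part of its interaction thus lies in the vehicle level. Igfbp4 fell less with TGFb after the Bmal1 siRNA (interaction 0.42, SE 0.095, adjusted p = 0.0115) and was called in all 24 as well (0.33 to 0.49). Its mean after that siRNA was 569 against 696 FPKM with scrambled siRNA under vehicle, and 502 against 457 under TGFb. The larger part of the Igfbp4 interaction thus lies in the vehicle level (log2 -0.29 under vehicle, 0.13 under TGFb, neither called in the main fit). Igfbp6 also fell less (0.78, SE 0.223, adjusted p = 0.0347), but this call held in only 13 of 24 fits and in 5 of the 12 that left out a library. It ended without any scrambled vehicle library, without scrambled TGFb replicate 1 or without any Bmal1 siRNA vehicle library (adjusted p 0.0517 to 0.0832), and under median-of-ratios scaling (0.0505) or quantile normalization (0.0501). Igfbp3 was not called (0.80, 95% interval 0.18 to 1.41, adjusted p = 0.0818) except in 3 fits, without Bmal1 siRNA TGFb replicate 1 among them (1.12, adjusted p = 0.000253).

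The remaining interactions were not called, and each 95% interval included 0. Igfbp7 had -0.33 (95% interval -0.91 to 0.25), Igfbp2 -0.42 (-1.15 to 0.31), Igf2 -0.12 (-0.39 to 0.15), Igf1r -0.05 (-0.27 to 0.16) and Igf2r 0.08 (-0.15 to 0.32). Single libraries moved these values: without Bmal1 siRNA TGFb replicate 1 the interaction was -0.55 for Igfbp7, -0.15 for Igfbp2 and -0.02 for Igf2, and without replicate 2 of that group it was -0.03, -0.66 and -0.22. Igf1r turned to 0.02 without scrambled TGFb replicate 1, and Igf2r went from 0.01 without Bmal1 siRNA TGFb replicate 2 to 0.17 without scrambled vehicle replicate 1. A difference between siRNAs was therefore not shown for the rise of Igfbp7 or the falls of Igf2 and Igfbp2, and the intervals allow a difference of the sizes given. Over all genes 61.6% of interaction calls were positive, against 42.3% with median-of-ratios scaling.

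Without TGFb, where Bmal1 RNA stood at a ratio of 0.731, none of the 9 genes was called between Bmal1 and scrambled siRNA by the main limma fit. Over all genes tested 0.660% were called, 0.294% higher and 0.366% lower. At an unadjusted threshold of 0.05 this fit gave 2, Igfbp4 and Igf1, and array weights called these same 2. The replicate number as a block called 3, Igf1, Igfbp2 and Igfbp4 (adjusted p 0.0226, 0.02 and 0.0373). Over all genes the block gave 540 calls, against 74 in the main fit. Igfbp4 lay lower in every Bmal1 siRNA library, 564.18 to 575.65 against 675.97 to 727.61 FPKM (log2 -0.29, 95% interval -0.44 to -0.15, adjusted p = 0.0642). It passed in 7 of 25 alternative fits, without Bmal1 siRNA TGFb replicate 1 or 2 among them (0.0494 and 0.0134). Igf1 had log2 0.39 (95% interval 0.14 to 0.64, adjusted p = 0.101) with overlapping libraries, and Igfbp2 0.51 (-0.00 to 1.03), also overlapping. Igfbp3 and Igfbp7 did not overlap either and were lower after the Bmal1 siRNA, at log2 -0.27 (95% interval -0.71 to 0.16) and -0.37 (-0.77 to 0.04). These 3 genes of 9 without overlap compare with 31.7% of all genes. An exact permutation test of 3 against 3 libraries cannot go below p = 0.1, which it gave for these 3 genes. The same test also gave 0.1 for each gene of the axis that limma called in the other comparisons of 2 groups.

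Under TGFb, 1 gene was higher and 2 were lower with the Bmal1 siRNA than with the scrambled siRNA, against 16.0% and 7.16% of all genes tested (23.2% in either direction). This comparison shares its libraries with those described above. Igf1 was lower, 3.55 to 3.97 against 5.72 to 7.05 FPKM without overlap (log2 -0.61, SE 0.115, adjusted p = 0.00242), and was called in all 25 alternative fits. Igfbp7 was lower, 45.02 to 92.93 against 111.09 to 111.93 FPKM (log2 -0.70, SE 0.189, adjusted p = 0.0185). That call ended without scrambled TGFb replicate 3 (adjusted p = 0.0507) and with only the groups compared (0.0751), and without Bmal1 siRNA TGFb replicate 2 the change was -0.40. Igfbp6 was higher, 15.99 to 28.11 against 10.21 to 14.00 FPKM (log2 0.65, SE 0.158, adjusted p = 0.0106), and lost its call with only the groups compared (0.0651). Without Bmal1 siRNA TGFb replicate 2 its change was 0.42.

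Igf2r, with Igfbp2 a gene whose upstream window holds the E-box letters, lay at 15.32 to 18.83 FPKM with the Bmal1 siRNA against 13.79 to 14.56 with scrambled siRNA under TGFb. The groups did not overlap, but the difference was not called (log2 0.22, 95% interval 0.05 to 0.39, adjusted p = 0.0554). It passed without scrambled vehicle replicate 1 (0.0261) or Bmal1 siRNA TGFb replicate 3 (0.0311). Under vehicle the difference was 0.14 (95% interval -0.03 to 0.31). Igf2 (log2 -0.20, adjusted p = 0.114), Igfbp3 (0.52, adjusted p = 0.077), Igfbp4 (0.13, adjusted p = 0.179), Igfbp2 (0.09, with the sign turning in some fits) and Igf1r (-0.05, likewise) were not called under TGFb, and their libraries overlapped. Without Bmal1 siRNA TGFb replicate 1, Igfbp3 (0.85, adjusted p = 0.000118) and Igfbp4 (0.19, adjusted p = 0.0447) passed, and without replicate 2 of that group Igf2 passed (-0.30, adjusted p = 0.0161), as it did in 6 of 25 alternative fits. In 4 of 9 genes the groups did not overlap, against 39.2% of all genes. Higher calls made up 69.1% of all calls in this comparison and 46.4% with median-of-ratios scaling.

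**Figure D3:**
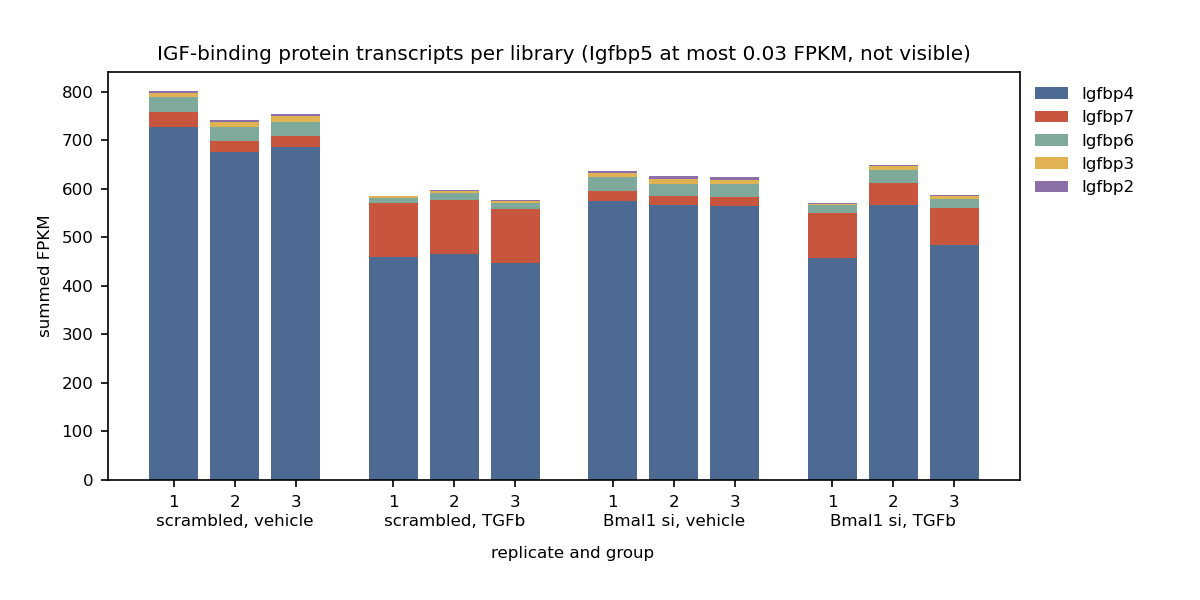
Stacked FPKM of the binding-protein transcripts in each library, by group and replicate. Igfbp4 made up 91.1% of the sum in control cells under vehicle and 78.0% under TGFb, while Igfbp7 went from 3.30% to 19%.

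Summed over the 6 binding proteins, transcript levels were 765 ± 30.8 FPKM with scrambled siRNA and vehicle, 587 ± 10.0 with scrambled siRNA and TGFb, 629 ± 6.08 with Bmal1 siRNA and vehicle and 602 ± 41.6 with Bmal1 siRNA and TGFb. These sums are a description and were not tested. The make-up changed more than the sum. Igfbp4 held 90.9% to 91.2% of the sum in control vehicle libraries and 77.3% to 78.6% with TGFb, and Igfbp7 went from between 3.06% and 3.76% to between 18.7% and 19.4%. After the Bmal1 siRNA, Igfbp7 went from between 2.97% and 3.20% to between 6.94% and 16.3%. Igfbp4 exceeded Igfbp7 by a factor of 27.9 ± 3.18 in control vehicle libraries and 4.10 ± 0.0929 with TGFb, and by 29.6 ± 1.14 and 7.95 ± 4.09 after the Bmal1 siRNA. Igf2 per unit of summed binding protein was 0.788 ± 0.0917, 0.691 ± 0.0326, 0.904 ± 0.0274 and 0.588 ± 0.0448 in the same order of groups as the sums. The ratio of Igf2 to Igf1 was 122 ± 16.3, 64.0 ± 3.24, 83.8 ± 9.39 and 93.0 ± 8.11 in that order. The ratio of Igf2r to Igf1r stayed between 1.79 and 2.85 in all libraries.

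**Figure D4:**
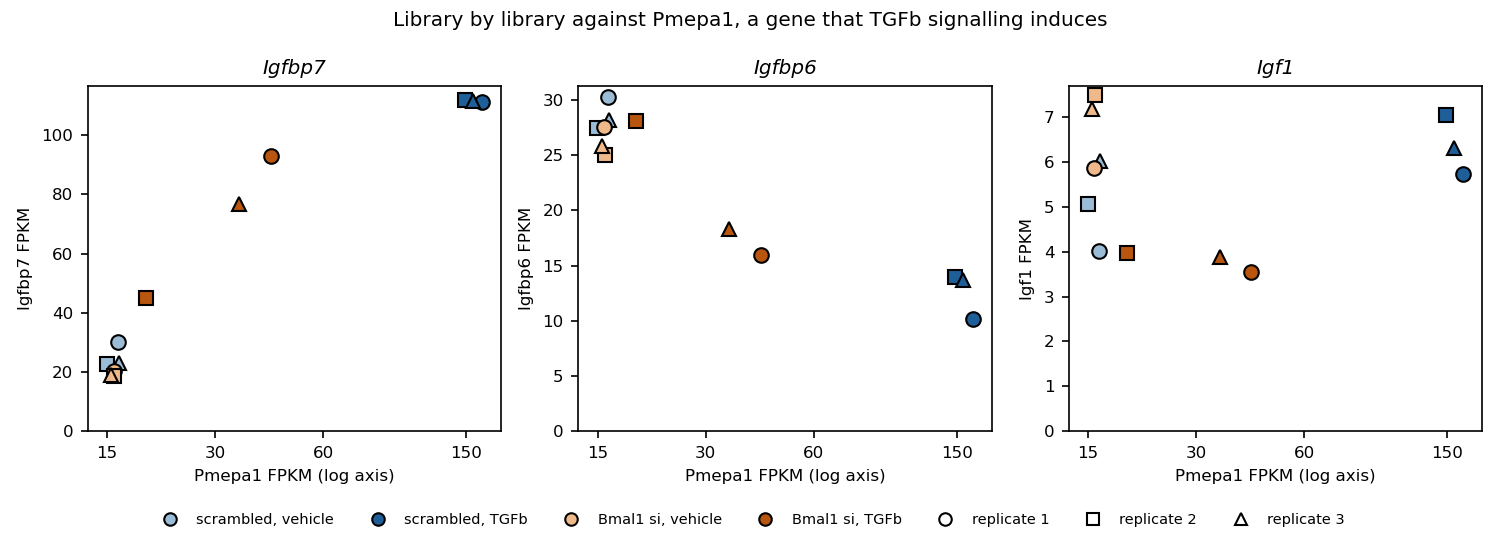
FPKM of Igfbp7, Igfbp6 and Igf1 (vertical, from 0) against FPKM of Pmepa1 (horizontal, log axis) in each library, coloured by group and with the symbol giving the replicate. The 3 Bmal1 siRNA TGFb libraries lie between the vehicle and control TGFb libraries for Igfbp7. For Igfbp6 the second of them (28.11 FPKM) lies among the vehicle libraries, and for Igf1 all 3 lie together below all 6 vehicle libraries. The highest of these Igf1 values (3.97 FPKM) nearly meets the lowest vehicle library (4.02 FPKM).

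The 3 libraries with Bmal1 siRNA and TGFb differed among themselves, and the binding proteins differed with them. Pmepa1 is induced by TGFb signalling and limits it in turn. Its 3 libraries there read 42.76, 19.24 and 34.89 FPKM, while scrambled siRNA gave 14.97 to 16.18 under vehicle and 148.60 to 166.05 under TGFb. Igfbp7 was highest in replicate 1 and lowest in replicate 2, as Pmepa1 was, and Igfbp2, Igfbp3, Igfbp4, Igfbp6 and Igf2 were lowest in replicate 1 and highest in replicate 2. Igf1 lay close together there, from 3.55 to 3.97 FPKM. These values were outside the range of both scrambled siRNA groups, but nearly met the lowest scrambled vehicle library (4.02 FPKM). The part of this library difference in the results was not tested beyond the fits that left a library out. Bmal1 itself was 5.05, 4.01 and 4.0 FPKM in these libraries. Replicate 1 also had the lowest value in all 4 groups for Igf1, Igf2, Igfbp2 and Igfbp3, a feature of 1 library number that the labels do not explain. Isg15, an interferon-induced gene, was uneven in the scrambled TGFb libraries (15.77, 99.10 and 32.25 FPKM), where Igfbp7 and Igfbp4 varied little. Leaving out the second library of both TGFb groups kept the interaction calls of Igf1, Igfbp4 and Igfbp6, the last of which ended in other fits as given above.

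The genes nearest in pattern were found as the highest Pearson correlation of log2(FPKM + 1) over the 12 libraries among the 10471 named genes whose mean reached 1 FPKM. Since TGFb separates the libraries into groups, high values are common and are given as a description. For Igfbp7 they were the smooth muscle gene Tagln (0.991) and Cdk18 (0.990), for Igfbp6 the lipid-droplet gene Plin3 (0.992) and Nxn (0.989), for Igf2 the growth-arrest ligand Gas6 (0.985) and Insig1 (0.978), and for Igfbp3 Tmem98 (0.98) and Uap1l1 (0.977). Igfbp4 was nearest to Tmem173, which encodes the innate sensor adaptor STING (0.984), and Igfbp2 to Zfp185 (0.973). Igf1 reached 0.935 at most, with the kinase gene Ptk2b, Igf1r 0.922 with Ep400 and Igf2r 0.933 with Cdk5rap2. Among the members themselves Igfbp3 and Igfbp6 were closest (0.92), Igfbp7 ran opposite to Igfbp3 (-0.92), and Igf1 was near 0 against Igfbp4 (-0.06).

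Enzymes that cleave binding proteins and their inhibitors moved in both directions with TGFb. In control cells 7 of 13 tested rose and 6 fell (median log2 0.49), where 16.4% of all genes rose and 29.1% fell. The gelatinase Mmp2 rose from 7.10 to 55.4 FPKM (log2 2.8) and the metalloprotease Adam12 from 7.05 to 13.0 FPKM (0.81). Htra3 fell from 4.87 to 0.767 FPKM (-1.74). With the Bmal1 siRNA 4 rose and 5 fell with TGFb (median 0.01), where 8.90% and 10.1% of all genes did. The interaction was called in 3 higher and 5 lower, against 8.86% and 5.52% of all genes, with Mmp2 at -1.45 and Adam12 at -1.13. Under TGFb 3 were higher and 5 lower with the Bmal1 siRNA, against 16.0% and 7.16% of all genes.

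The CCN proteins carry an IGFBP domain but are chiefly matricellular. Of 6 tested genes of the list of proteins with such a domain, 4 rose and 2 fell with TGFb in control cells (median log2 1.10), against 16.4% and 29.1% of all genes. Those that rose included Ccn2, the connective tissue growth factor, from 21.7 to 117 FPKM (2.37), Ccn5 from 0.757 to 9.23 (2.55) and Ccn4 from 49.7 to 134 FPKM (1.42). With the Bmal1 siRNA 3 rose and none fell by limma (median 0.44), against 8.90% and 10.1%, with Ccn2 going from 18 to 40.2 FPKM (1.01). The interaction was called lower in 3, Ccn5 (-1.74), Ccn2 (-1.36, adjusted p = 0.02) and Ccn4 (-0.84), and higher in 1, Crim1 (0.27), against 5.52% and 8.86% of all genes.

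Of 17 adaptors and regulators downstream of the receptors 5 rose and 6 fell with TGFb in control cells (median log2 -0.10), beside 16.4% and 29.1% of all genes. Grb14, which restrains insulin receptor signalling, fell from 28.8 to 11.8 FPKM (-1.23), the cytokine-induced inhibitor Socs3 from 40.0 to 20.9 (-0.91) and the docking protein gene Gab1 from 25.6 to 17.1 FPKM (-0.55), while the related Grb10 rose from 2.97 to 4.29 FPKM (0.41). Under the Bmal1 siRNA 1 rose and 4 fell, beside 8.90% and 10.1%. The interaction was called in 2 of 17, near the 14.4% of all genes, namely Socs3 (0.60, adjusted p = 0.0101) and the insulin receptor substrate Irs2 (-0.35, adjusted p = 0.0207). The insulin receptor gene Insr stood at 3.64 ± 0.475 FPKM with scrambled siRNA and vehicle and at 3.95 ± 0.170 with TGFb.

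Of 29 genes of PI3K, AKT, mTOR and FoxO signalling 5 rose and 9 fell with TGFb in control cells (median log2 -0.05, that of all genes tested), shares near the 16.4% and 29.1% of all genes. The transcription factor Foxo1 rose from 3.29 to 5.63 FPKM (0.63) and the translation repressor Eif4ebp1 from 393 to 570 (0.54), and the regulatory subunit Pik3r1 fell from 5.23 to 3.51 FPKM (-0.46). With the Bmal1 siRNA 2 rose and 1 fell, beside 8.90% and 10.1%. The interaction for Foxo1 was -0.85 (adjusted p = 0.000314), with means of 3.99 FPKM under vehicle and 3.29 under TGFb after the Bmal1 siRNA. Of 13 known FoxO targets 2 rose and 8 fell with TGFb in control cells, against 16.4% and 29.1% of all genes, with Gadd45a at 1.84, Trib1 at -1.49 and Sesn3 at -1.06. With the Bmal1 siRNA 1 rose and 4 fell, against 8.90% and 10.1%.

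The lysosomal enzymes and sorting factors of the mannose 6-phosphate route, which IGF2R serves, had 12 of 19 lower and none higher by limma with TGFb in control cells (median log2 -0.26). Over all genes 29.1% were lower and 16.4% higher, a split that was nearly even with median-of-ratios scaling, as given above. The list's lower genes included the protease Ctsb from 413 to 240 FPKM (-0.78) and the sialidase Neu1 from 7.97 to 5.08 FPKM (-0.56). After the Bmal1 siRNA 2 were lower (median -0.09), against 10.1% of all genes, and the interaction was called higher in 5, against 8.86%, with Ctsb at 0.42. Of the remaining family members, 5 were tested: the growth hormone receptor Ghr fell from 7.81 to 6.13 FPKM with TGFb in control cells (-0.31), and the Igf2 mRNA-binding protein Igf2bp1 rose from 8.91 to 10.3 FPKM (0.19).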

How the data were processed

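Sample titles gave the group of each of the 12 RNA-seq libraries. The deposited values are FPKM with 2 decimals, per the file headers. The submitters' processing notes name DESeq2, RSEM, Bowtie2 2.2.5, HISAT2 2.0.4 and the mm10 build, with no role for any. The authors' annotation, strand use and read numbers are unknown, and so is which of 2 RNA kits each sample had. The authors' FPKM are relative to library size, so shifts of abundant genes move the rest, and they hold no counting error.

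Of 16290 lines 555 had no gene identifier (1.304% to 1.464% of a library's FPKM) and were left out. Where an identifier was repeated (15 cases) the higher mean was kept, leaving 15720, of which 15694 had a symbol in GENCODE M21. The 11208 genes whose mean reached 0.5 FPKM were tested, two-sided, on log2(FPKM + 1). limma 3.58.1 (R 4.3.3) fitted 1 mean per group to the 12 libraries, with an intensity trend and 8 residual plus 5 prior degrees of freedom. A gene was called, and said to rise or fall, at a Benjamini-Hochberg adjusted p under 0.05 over all genes tested. The design assumed RPKM; FPKM takes the same test. Fits were tested on simulated data.

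The members, lists and tests were chosen with earlier results of these data known. Named genes are all members, Arntl, Isg15, Pmepa1, exon-overlapping genes, the highest correlated genes, and from each list up to 4 called genes per comparison with the largest change among those reaching 1 FPKM in either group or, failing any call, the 2 lowest p-values; fewer are printed (some are not reported here), and Igfals falls outside it and was named after its values were seen. Alternatives were pseudocounts of 0.1 and 5, a filter at 2 FPKM or none, scaling by median of ratios or to equal totals, quantiles, a replicate block, only the groups compared, no trend, robust fitting, array weights, a 2-fold minimum, each library left out, and both second TGFb libraries left out. Where leaving out a library left 2 in a group, the spread was pooled over all groups.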

Additional observations from a re-analysis of the deposited data

Results flagged for a closer look

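The effect of TGFb differed between the siRNAs for 3 genes by the interaction term of the limma fit. For Igf1 the effect after the Bmal1 siRNA minus that with scrambled siRNA was -1.0 on the log2 scale (adjusted p = 0.00176). Its TGFb libraries were all lower than its vehicle libraries after the Bmal1 siRNA (3 of 3), whereas with scrambled siRNA the groups overlapped. For Igfbp4 the difference was 0.42 (adjusted p = 0.0115), with all 3 scrambled TGFb libraries below vehicle. For Igfbp6 it was 0.78 (adjusted p = 0.0347), also with all 3 scrambled TGFb libraries below vehicle, and it is the least stable of the 3. Part of the interaction of Igf1 and the larger part of that of Igfbp4 lay in the vehicle level, as given above.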

How the results depend on the processing

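Of 1116 recomputed log2 changes of single genes, 1026 kept their direction and their side of the threshold, 46 gained a call, 24 lost one and 20 changed sign, none of them a called value. A pseudocount of 5 shrank called changes of Igf1, Igfbp2 and Igfbp3 by over 1.5 times and ended none. The number of genes called with TGFb was 6 in control cells and 5 after the Bmal1 siRNA; a 2-fold minimum left 3 and 2, and leaving out a library gave 5 to 7 and 4 to 7. Between siRNAs under TGFb it was 3; it was 0 with a 2-fold minimum, 1 with only the groups compared, 6 with array weights and 2 to 5 without a library (5 without Bmal1 siRNA TGFb replicate 1). For the interaction it was 3, 0 with a 2-fold minimum and 2 to 4 without a library. Between siRNAs under vehicle it was 0; it was 1 with quantile normalization, 1 with only the groups compared, 2 with array weights, 1 without both second TGFb libraries and 0 to 2 without a library (1 without Bmal1 siRNA TGFb replicate 1, and 2, Igfbp4 and Igfbp7, without replicate 2). Over all genes that comparison had 74 calls, from 2 to 1490 over the alternatives, and equal totals turned its share of higher calls from 44.6% to 61.2%. The other all-gene counts were 5105 (4390 to 6454) and 2128 (1166 to 5513) for TGFb in control cells and after the Bmal1 siRNA, 2596 (1492 to 4914) between siRNAs under TGFb and 1612 (991 to 3723) for the interaction. The cause was not tested.

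The replicate number as a block gave 6 calls between siRNAs under TGFb and 3 under vehicle (Igf1, Igfbp2 and Igfbp4), and moved no other count by over 1.5 times. Of 18 pairs of libraries with the same number 8 had correlated deviations above 0.1 (range -0.161 to 0.475). The 36 pairs with different numbers ran from -0.407 to 0.241. The own number was the best match in 20 of 36 checks, each among the 3 libraries of a group. Replicate 1 of the scrambled TGFb group and of both Bmal1 siRNA groups correlated at 0.37 to 0.475. With replicate 1 of the scrambled vehicle group these ran from -0.024 to 0.171. No label says what a number shares, and these values do not settle it, so the block was kept as an alternative.

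Values that changed sign were all near 0. Igf1r with TGFb in control cells ran from -0.018 to 0.101 without a library; after the Bmal1 siRNA from -0.049 to 0.033, with 0.0043 by quantile normalization and 0.033 without both second TGFb libraries. Igf2r after the Bmal1 siRNA ran from -0.053 to 0.087, with -0.086 by array weights and -0.053 without both second TGFb libraries. Igf1r between siRNAs under vehicle ran from -0.014 to 0.036, with -0.021 by quantile normalization and -0.0029 by array weights; under TGFb from -0.101 to 0.019; and its interaction from -0.104 to 0.016. Igfbp2 between siRNAs under TGFb ran from -0.149 to 0.36, with -0.033 without both second TGFb libraries, and the interaction of Igf2r was -0.015 in that fit. Depth is unknown, and Igfbp2 and Igf1, at a few FPKM, rest on fewer fragments than Igfbp4 and Igf2.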
